A study of Homo sapiens with 8 samples.

Results

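Kinesins are motor proteins that walk along microtubules or shorten their ends, driven by ATP. The mitotic kinesins build the spindle, move chromosomes and help to split the cell, and their transcripts are known to accumulate as cells approach division. Transport kinesins carry vesicles, mitochondria and other cargo, and a further set serves cilia, centrioles and signalling. The kinesin family genes described here are the protein-coding genes whose symbol is KIF or KIFC followed by a number and at most 1 letter. The rule found 42 such genes among the 78932 gene identifiers of the tables. The pseudogene KIF28P has a matching symbol and was left out because it does not encode a protein. By the function usually assigned to them, 15 genes were classed as mitotic, 17 as transport and 10 as cilium, signalling or other kinesins.

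The 8 libraries came from HCT116, a human colorectal cancer cell line, in its dTAG-NUDT21 form. In these cells NUDT21, a subunit of the cleavage factor that binds RNA ahead of poly(A) sites, carries a tag that marks the protein for degradation when dTAGV1 is added. One group of 4 libraries was labelled DMSO plus JTE-607 and the other group of 4 dTAGV1 plus JTE-607, so both groups share the tagged line and JTE-607, an inhibitor of the nuclease that cuts messenger RNA precursors at poly(A) sites. The question was which RNA levels differ with dTAGV1 in cells that also receive JTE-607. Doses, times and whether the line is 1 clone are not given in the sources used here, nor whether replicates were separate cultures, so that p-values measure the spread between these libraries, which may be technical.

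Messenger RNA 3′ ends were sequenced, and the level of a gene is given as CPM, its reads on the strand of the gene in each 1000000 reads counted to genes, after TMM scaling. Libraries held 3447842 to 4291256 counted reads, of which 6748 to 12201 fell on kinesin genes. NUDT21 itself stood at 28.2, 33.3, 34.7 and 31.7 CPM in DMSO replicates 1 to 4 and at 9.57, 8.70, 4.39 and 10.1 CPM in dTAGV1 replicates 1 to 4, so the groups did not overlap. The epithelial identity of the line was visible in the summed level of 9 epithelial markers, 1713 to 2003 CPM with DMSO and 1523 to 1637 CPM with dTAGV1. Of these markers 8 had at least 10 counts in all, but VIL1 did not. Reaching 10 counts does not set this list apart, since all 7 neuronal markers did so too. Their sum was lower, at 145 to 157 CPM with DMSO and 33.3 to 44.6 CPM with dTAGV1. Of 8 blood markers 1 reached 10 counts, with a sum of 1.17 to 3.93 CPM in any library. Fibroblast and endothelial markers summed to 11.7 to 22.2 CPM, with COL1A1 at a mean of 15.4 CPM, and COL3A1, DCN and LUM were at 0.

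A kinesin gene was called when its adjusted p was under 0.05 in edgeR's quasi-likelihood F test, with Benjamini-Hochberg adjustment over the 12618 genes that passed the filter on low counts. Log2 fold changes are dTAGV1 against DMSO, so negative values are lower with dTAGV1. Of the 42 kinesin genes 30 passed the filter, and 21 of these were called lower and 6 higher. Over all tested genes 28.5% were called lower and 29.4% higher, or 57.9% in either direction. The median log2 fold change of the 30 was -0.82, beside 0.01 over all tested genes.

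The classes differed in their pattern. All 12 tested mitotic kinesins fell, by 1.24-fold to 2.95-fold, and none rose. Among 14 tested transport kinesins 6 fell, 5 rose and 3 were not called. Their median log2 fold changes were -1.11 and 0.02. Of the 4 tested genes in the cilium, signalling and other class, 3 fell and 1 rose. The groups of libraries did not overlap for 12 of 12 mitotic and 9 of 14 transport kinesins, where 50.9% of all tested genes had groups without overlap (25.1% lower and 25.8% higher with dTAGV1). The 9 transport kinesins were 6 lower and 3 higher. Mitotic kinesins called more than 2-fold lower numbered 6, beside 3 transport kinesins, against 9.23% of all tested genes.

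**Figure D1:**
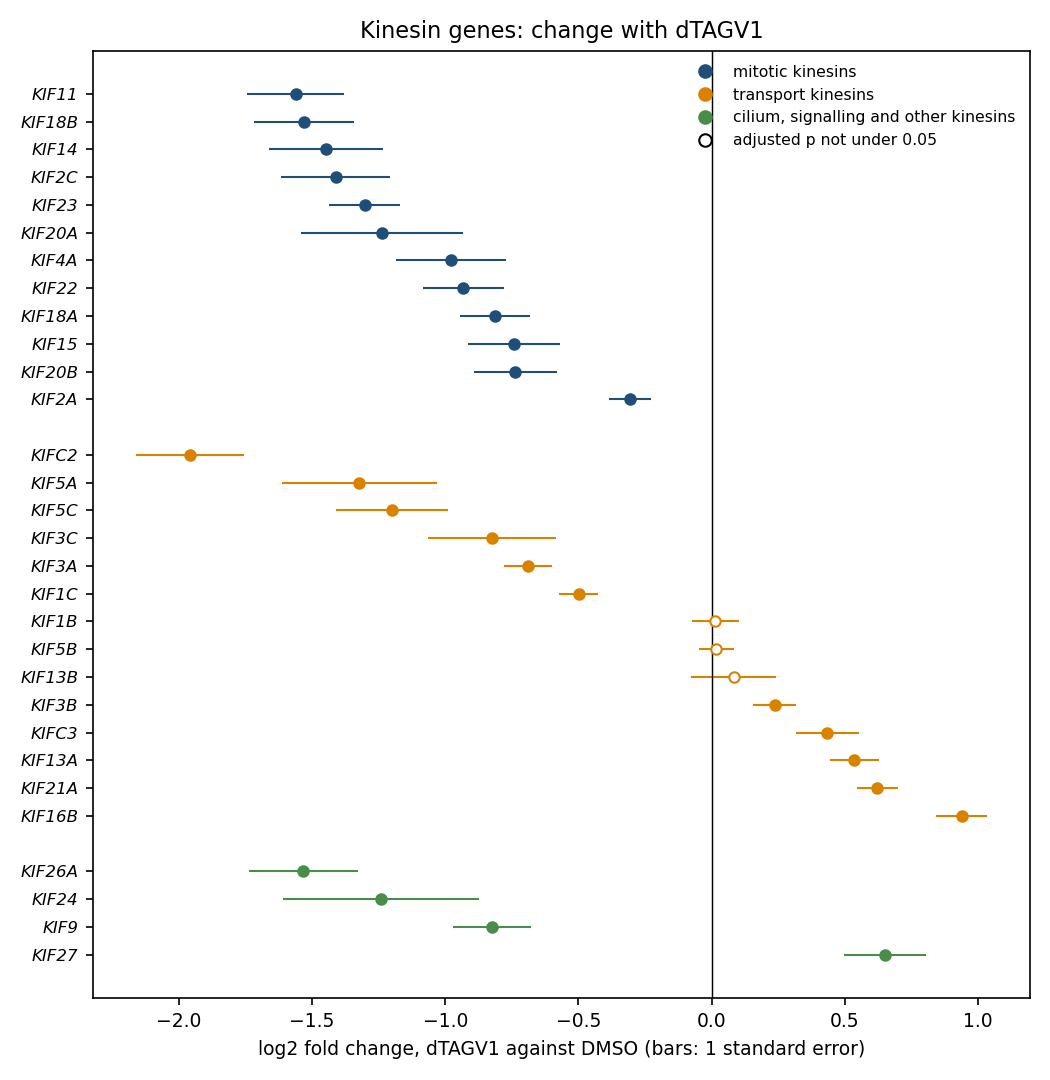
Log2 fold change of each tested kinesin gene, dTAGV1 against DMSO, on the horizontal axis, with genes grouped by class on the vertical axis. Points are estimates over 4 against 4 libraries, bars are 1 standard error, and open points did not pass the test. All 12 mitotic kinesins lie below 0, and the transport kinesins lie on both sides.

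Summed over the 15 mitotic genes, the level was 868, 1346, 1232 and 963 CPM in DMSO replicates 1 to 4 and 596, 512, 549 and 659 CPM in dTAGV1 replicates 1 to 4. Every dTAGV1 library was thus below every DMSO library, and DMSO replicates 2 and 3 were the highest of the 8. The 17 transport genes together gave 1429, 1511, 1507 and 1514 CPM with DMSO and 1544, 1464, 1586 and 1593 CPM with dTAGV1, and there the groups overlapped. With dTAGV1 the mean sum was 0.525 times that with DMSO for mitotic and 1.04 times for transport kinesins. On library size alone the transport sums differed by -22.5 CPM instead of 56.4 CPM, so no direction is given for that class. The ratio of both sums was 0.607, 0.891, 0.817 and 0.636 with DMSO and 0.386, 0.350, 0.346 and 0.414 with dTAGV1, without overlap. These sums are descriptions of chosen genes and carry no test.

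**Figure D2:**
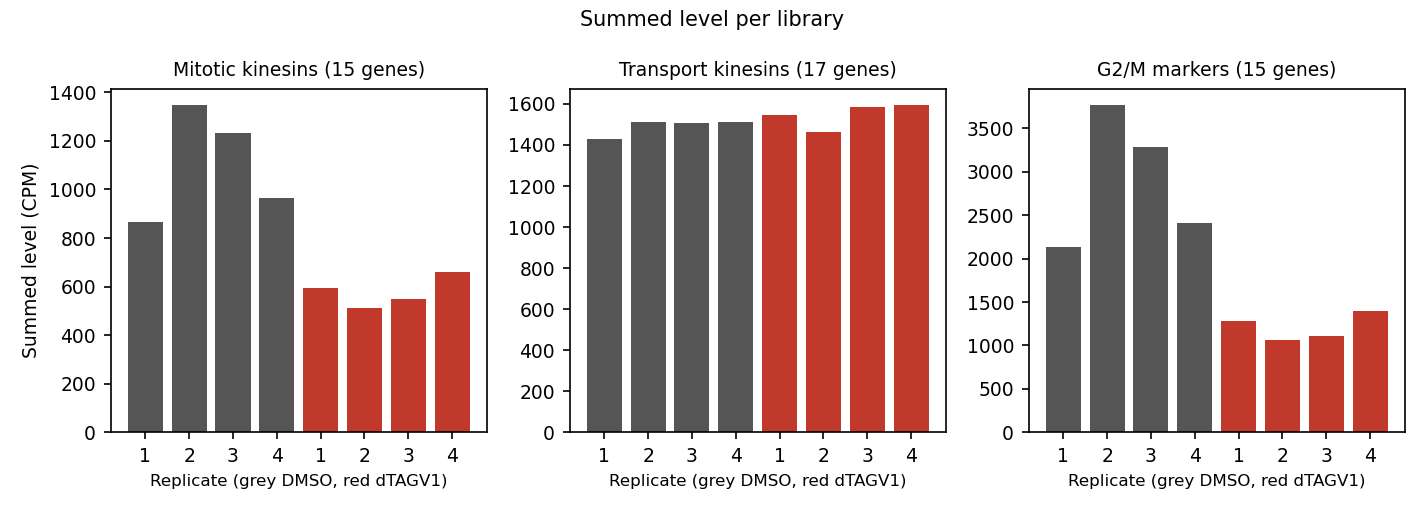
Summed level in CPM on the vertical axis for each of the 8 libraries, in 3 panels for mitotic kinesins, transport kinesins and G2/M marker genes, with DMSO in grey and dTAGV1 in red. Mitotic kinesin sums run from 868 to 1346 CPM with DMSO and from 512 to 659 CPM with dTAGV1, and DMSO replicates 2 and 3 are high in the first and the last panel only.

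Promoter sequence, which the rule did not use, was compared between the classes. The cell cycle homology region, or CHR (letters TTTGAA), and the CCAAT box (letters CCAAT) are DNA elements known from promoters of genes active late in the cell cycle, where the first is bound by the DREAM and MuvB complexes and the second by NF-Y. Both were searched on both strands in RefSeq promoter windows of 300 bases (250 before to 50 after the start, GRCh38.p14), which were at hand for 34 kinesin genes. A CHR match lay in 8 of the 12 tested mitotic kinesins (not in KIF20A, KIF22, KIF2A or KIF2C), in 1 of 10 tested transport kinesins with a window and in 0 of 3 others. The share was 9.53% among the 9230 windows of tested genes and 15.2% among all 35116. A CCAAT match was found in 9 of 12 mitotic and 3 of 10 transport kinesins, beside 37.1% for tested genes. KIF2A and KIF2C had neither motif. Both motifs together lay in 7 of 12 mitotic and 1 of 10 transport kinesins, beside 4.12% for tested genes. CHR and CCAAT matches do not overlap each other in the windows printed here. A match to an E2F core (letters GGCGGGAA, both strands) was present in 0 of 12 mitotic, 0 of 10 transport and 0 of 3 other windows and in 5.4% for tested genes. A match is not evidence of binding, and starts other than the RefSeq one were not searched. Only the exact letters given were searched, so a gene without a match is not shown to lack the element.

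Shown are the last 150 bases before and the first 50 after the RefSeq start, on the strand of the gene, with CHR and CCAAT matches in capitals (TTCAAA and ATTGG are the same letters on the other strand). KIF11, KIF18A, KIF23 and KIF4A are shown because both motifs lie close together shortly before the start of a gene that fell. KIF5B is the transport kinesin with both motifs, placed farther apart than in those shown, whose level was not called. KIF16B, which rose, has neither. The windows are chr10:92592980-92593179 (plus strand), chr11:28108107-28108306 (minus), chr15:69414199-69414398 (plus), chrX:70289954-70290153 (plus), chr10:32056376-32056575 (minus) and chr20:16573399-16573598 (minus), in that order.
KIF11: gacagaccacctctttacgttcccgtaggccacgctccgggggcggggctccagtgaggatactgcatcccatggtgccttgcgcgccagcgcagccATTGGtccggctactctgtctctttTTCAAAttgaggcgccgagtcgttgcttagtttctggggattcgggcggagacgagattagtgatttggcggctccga
KIF18A: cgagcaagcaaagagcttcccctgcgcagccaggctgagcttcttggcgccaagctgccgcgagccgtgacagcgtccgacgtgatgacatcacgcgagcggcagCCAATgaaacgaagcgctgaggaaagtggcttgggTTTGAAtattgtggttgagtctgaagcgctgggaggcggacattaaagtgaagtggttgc
KIF23: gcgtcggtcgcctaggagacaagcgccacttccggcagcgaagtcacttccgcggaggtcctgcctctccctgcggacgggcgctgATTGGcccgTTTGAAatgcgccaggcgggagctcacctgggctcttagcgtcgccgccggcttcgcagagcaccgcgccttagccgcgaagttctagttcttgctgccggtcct
KIF4A: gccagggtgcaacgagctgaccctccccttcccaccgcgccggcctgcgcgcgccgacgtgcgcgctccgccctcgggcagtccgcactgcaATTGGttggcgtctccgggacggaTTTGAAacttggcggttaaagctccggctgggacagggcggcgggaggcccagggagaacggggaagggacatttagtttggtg
KIF5B: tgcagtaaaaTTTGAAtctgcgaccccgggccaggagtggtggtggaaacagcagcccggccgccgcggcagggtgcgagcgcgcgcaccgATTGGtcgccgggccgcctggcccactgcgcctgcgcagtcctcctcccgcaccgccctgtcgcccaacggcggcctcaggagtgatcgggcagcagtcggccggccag
KIF16B: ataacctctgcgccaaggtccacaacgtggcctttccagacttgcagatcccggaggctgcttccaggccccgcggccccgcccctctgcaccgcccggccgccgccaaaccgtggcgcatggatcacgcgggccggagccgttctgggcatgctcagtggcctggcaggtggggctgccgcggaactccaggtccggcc
In KIF11 the CCAAT match begins 53 bases and the CHR match 28 bases before the start. The same order holds in KIF18A, at 45 and 10 bases, in KIF4A, at 58 and 34 bases, and in KIF23, at 64 and 55 bases. In KIF5B the CHR match comes first, at 140 bases, and the CCAAT match follows at 59 bases. Wide spacing is not particular to KIF5B. In KIF20B, which fell, CCAAT matches begin 131 and 98 bases before the start and CHR matches 24 and 30 bases after it. In KIF14 and KIF18B, which also fell, the CHR match begins 1 and 2 bases after the start. Outside the mitotic class the motifs did not follow the direction of change. KIF1C, KIF3A, KIF3C, KIF5C, KIF26A and KIF9 fell with neither motif, and KIF13A and KIF21A, like KIF16B, rose with neither. KIF3B rose and KIF24 fell with CCAAT matches but no CHR match.

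**Figure D3:**
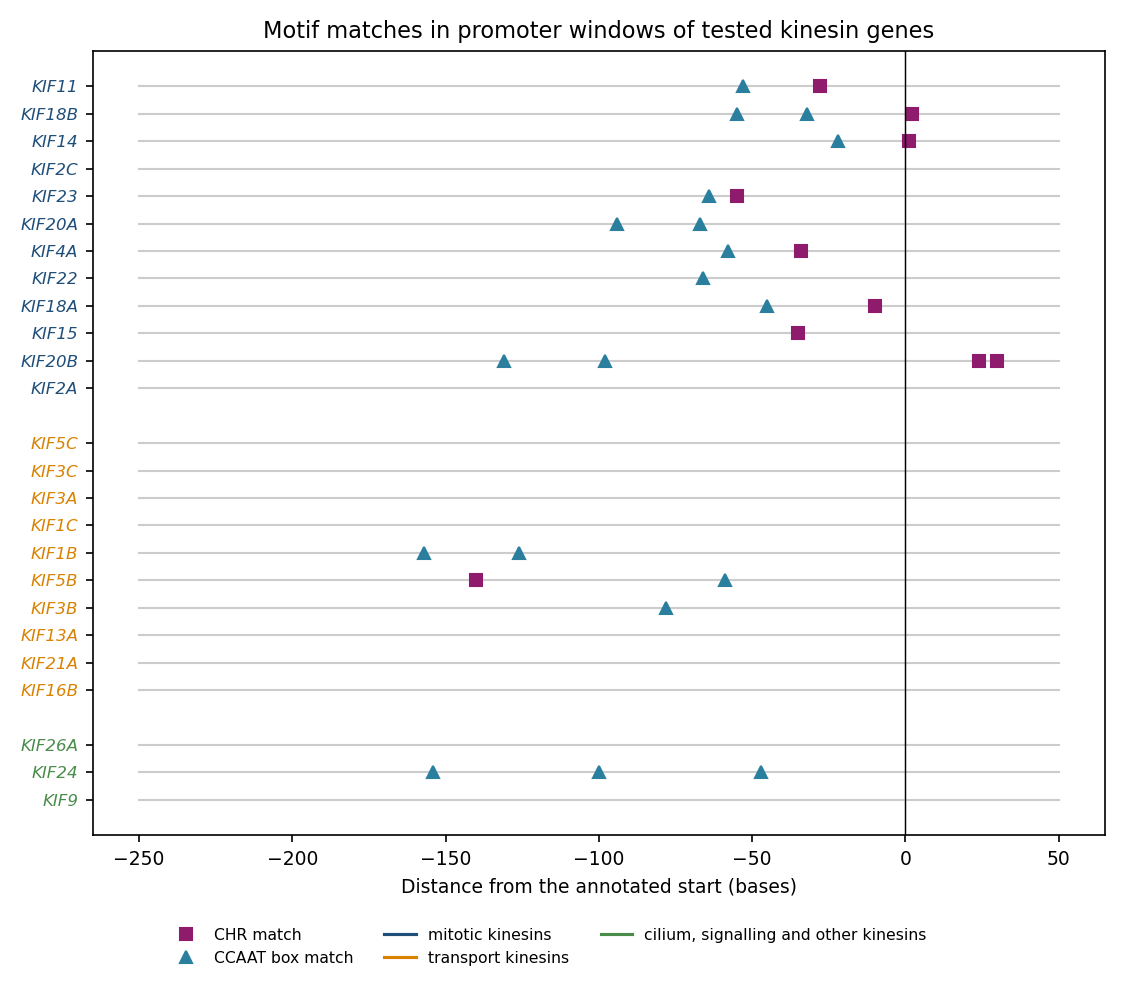
Positions of CHR matches (squares) and CCAAT matches (triangles) in the promoter windows of the tested kinesin genes that have one, in bases from the RefSeq start on the horizontal axis, with genes grouped by class and ordered by log2 fold change within it. Squares lie in 8 of 12 mitotic rows and 1 of 10 transport rows.

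Spindle motors come first among the members. KIF11, the plus-end motor that pushes spindle poles apart and the target of several antimitotic compounds (ENSG00000138160; GRCh38 chromosome 10, 92593286 to 92655395, plus strand), was at 43.7, 71.8, 59.3 and 43.4 CPM in DMSO replicates 1 to 4 and at 19.4, 17.4, 13.5 and 23.0 CPM in dTAGV1 replicates 1 to 4. All dTAGV1 libraries lay below all DMSO libraries, and the means were 54.6 ± 13.7 and 18.3 ± 3.99 CPM (SD, n = 4 each). The KIF11 change of -1.56 on the log2 scale (SE 0.18, adjusted p = 1.37e-06) was the most negative of the mitotic class in this fit. KIF15, which can keep a spindle bipolar when KIF11 is inhibited, had 19.3, 28.7, 29.7 and 21.6 CPM with DMSO and 18.9, 11.4, 12.9 and 16.0 CPM with dTAGV1. DMSO replicate 1 and dTAGV1 replicate 1 nearly met, and the log2 fold change was -0.74 (SE 0.17, adjusted p = 0.000724). Without both DMSO replicates 2 and 3 it was -0.47 and KIF15 was no longer called (adjusted p = 0.0696).

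KIFC1, a minus-end motor that gathers extra centrosomes, had 3, 11, 7 and 7 counts with DMSO and 3, 1, 0 and 1 with dTAGV1 and was not tested. When low counts were kept edgeR called it lower (adjusted p = 0.00469). NUSAP1 and DYNLRB1, which dividing cells are known to use, were also counted at under 1 CPM, so a low count is not read as a lack of RNA here.

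Kinesin-13 proteins do not walk but take tubulin off microtubule ends. KIF2C, which corrects faulty chromosome attachments, was measured at 69.2, 121, 114 and 79.3 CPM in the DMSO libraries and 36.9, 35.1, 27.5 and 43.9 CPM in the dTAGV1 libraries. The lowest DMSO value was well above the highest dTAGV1 value, with means of 95.9 ± 25.5 and 35.8 ± 6.74 CPM (SD, n = 4 each) and a log2 fold change of -1.41 (SE 0.20, adjusted p = 0.000150). KIF2A, a relative that also acts in neurons and at spindle poles, had 142, 146, 154 and 142 CPM and 109, 111, 125 and 127 CPM. These groups also did not overlap, but the log2 fold change was the smallest of the mitotic class, -0.31 (SE 0.08, adjusted p = 0.00155). On counts irrespective of strand it was -0.18 and not called (adjusted p = 0.104). The cause of this difference was not tested. In the annotation used here for gene positions, 428 exonic bases of KIF2A overlap IPO11 on the same strand. The annotation used for counting is not named in the sources, so how reads there were counted is not known. KIF2B, the testis-enriched member, had 0 counts in all 8 libraries.

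Kinesin-8 motors limit the length of microtubules. Levels of KIF18A, which dampens the swaying of aligned chromosomes, were 36.9, 61.0, 51.9 and 50.1 CPM with DMSO and 27.3, 28.2, 28.4 and 30.1 CPM with dTAGV1. The dTAGV1 values were close to each other and below all DMSO values, and the log2 fold change was -0.81 (SE 0.13, adjusted p = 8.26e-06). KIF18B, which trims astral microtubules, gave 31.5, 45.7, 46.3 and 34.6 CPM and 14.6, 8.996, 10.8 and 19.3 CPM. Its fall was larger, at a log2 fold change of -1.53 (SE 0.19, adjusted p = 7.29e-07).

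Chromokinesins bind chromosome arms. KIF4A, which also shortens the central spindle together with PRC1, had 80.6, 141, 126 and 86.4 CPM with DMSO and 64.4, 43.2, 51.2 and 60.8 CPM with dTAGV1. DMSO replicates 2 and 3 stood above replicates 1 and 4, and no dTAGV1 library reached the lowest of them. The means of KIF4A were 108 ± 29.5 and 54.9 ± 9.61 CPM (SD, n = 4 each), with a log2 fold change of -0.98 (SE 0.21, adjusted p = 0.00278). Without both DMSO replicates 2 and 3 that change was -0.61. KIF4B, whose coding sequence is 95.8% identical to that of KIF4A in GENCODE 29, had 0 to 3 counts per library, and reads that fit both loci are not in these counts. KIF22, which pushes chromosomes towards the spindle equator, was found at 66.7, 84.5, 90.6 and 56.5 CPM and 43.0, 47.4, 31.3 and 35.0 CPM, without overlap. KIF22 had a log2 fold change of -0.93 (SE 0.15, adjusted p = 6.40e-05).

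The last group of mitotic kinesins acts in cytokinesis. KIF23, the motor part of centralspindlin with RACGAP1, was at 72.2, 113, 95.3 and 79.3 CPM with DMSO and 39.7, 34.2, 30.4 and 41.3 CPM with dTAGV1. Its means of 90.1 ± 18.4 and 36.4 ± 5.02 CPM (SD, n = 4 each) gave a log2 fold change of -1.30 (SE 0.13, adjusted p = 5.01e-08), the lowest adjusted p of the class. KIF20A, which brings the chromosomal passenger complex to the midzone, showed 34.2, 85.0, 69.7 and 45.7 CPM and 26.2, 20.4, 22.5 and 29.8 CPM. Here the DMSO libraries spread most, with a coefficient of variation of 39.2%, at 58.6 ± 23.0 CPM against 24.7 ± 4.15 CPM (SD, n = 4 each), and the log2 fold change was -1.24 (SE 0.30, adjusted p = 0.00864). Without both DMSO replicates 2 and 3 it was -0.70 and still called (adjusted p = 0.00189). KIF20B, a midzone protein and the mitotic kinesin with the highest CPM, had 211, 331, 299.5 and 250.4 CPM with DMSO and 159.8, 129.8, 168 and 196 CPM with dTAGV1. The groups did not overlap, and the log2 fold change of KIF20B was -0.74 (SE 0.15, adjusted p = 0.00211). KIF14, a partner of citron kinase and PRC1, was at 59.9, 115, 92.4 and 71.9 CPM and 35.5, 24.3, 27.2 and 36.6 CPM. Again without overlap, its log2 fold change was -1.45 (SE 0.21, adjusted p = 0.000193).

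**Figure D4:**
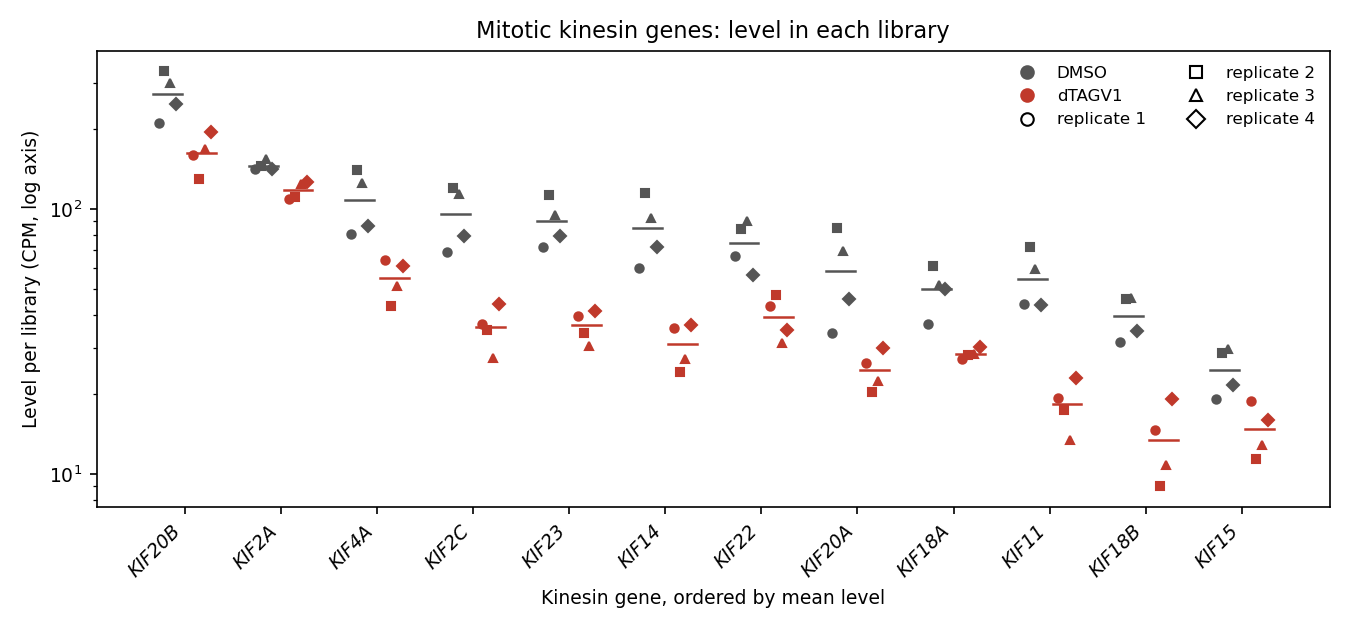
Level of each of the 12 tested mitotic kinesin genes in CPM on a log axis, ordered by mean level. Points are libraries, with grey for DMSO, red for dTAGV1 and a symbol for each replicate number, and short lines are group means; in every gene the red points lie below the grey ones, and DMSO replicates 2 and 3 lie above 1 and 4.

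The DMSO libraries were not alike in mitotic kinesins. In all 12 tested genes of the class, DMSO replicates 2 and 3 were both above replicates 1 and 4, which held for 1 of 14 transport kinesins. The same order was seen in 15 of 15 G2/M markers, genes such as CDC20 and CCNB1 that are active from DNA replication to division, and in 11 of 15 G1/S markers. The median coefficient of variation among the DMSO libraries was 21.0% for mitotic and 8.00% for transport kinesins. These genes come from the same 4 libraries, so their order is 1 observation and not 12. Leaving out both DMSO replicates 2 and 3, an alternative chosen after the data were seen, kept 11 of 12 mitotic kinesins called lower and moved their median log2 fold change from -1.11 to -0.68.

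Cell cycle genes of other families moved with the mitotic kinesins. All 15 G2/M markers fell, where 28.5% of all tested genes were called lower. These markers had a median log2 fold change of -1.28, from CDC20 at -2.01 and CDCA3 at -1.73 to TOP2A at -1.10 and CCNB2 at -0.72. Their summed level was 2139, 3764, 3285 and 2412 CPM with DMSO and 1277, 1067, 1112 and 1398 CPM with dTAGV1. The mean sum was 0.418 times as high with dTAGV1, beside 0.525 times for mitotic kinesins. G1/S markers fell in 14 of 15 cases, beside the same 28.5% over all tested genes. Their median was -1.45, from CCNE1 at -1.999 and E2F1 at -1.98 to SLBP at -0.26, and PCNA stood at 0.05 (adjusted p = 0.696). The part of these markers in the fall of the kinesins was not tested, and in bulk RNA fewer cells of a phase and less RNA per cell cannot be told apart.

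Of 24 proteins that work with the mitotic kinesins 23 were tested, and 19 fell and 1 rose, with a median of -1.23. Over all tested genes 28.5% were called lower and 29.4% higher. PSRC1, a spindle protein, had the most negative log2 fold change at -2.25 (SE 0.21, adjusted p = 1.21e-09). ECT2, the exchange factor that centralspindlin brings to the cell equator, followed at -1.89 (SE 0.12, adjusted p = 9.57e-13). CENPE, a kinesin of the kinetochore whose symbol keeps it outside the rule, fell by 1.37 on the log2 scale (SE 0.26, adjusted p = 0.00294). At the other end CLASP1, a stabiliser of microtubule ends, rose by 0.50 (SE 0.10, adjusted p = 0.000195), and ASPM was at -0.03 (SE 0.21, adjusted p = 0.929).

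Transport kinesins are described by family. Kinesin-1 heavy chains pull mitochondria and many vesicles, and KIF5B is the form found in most tissues. KIF5B (ENSG00000170759; chromosome 10, 32009010 to 32056431, minus strand) had the highest CPM of all kinesin genes, 506, 536, 492 and 506 CPM with DMSO and 522, 480.4, 517 and 548 CPM with dTAGV1. The groups overlapped, and the log2 fold change was 0.02 (SE 0.07, adjusted p = 0.831). The other two heavy chains, known mainly from neurons, were low and fell. KIF5C was at 14.9, 14.8, 16.4 and 17.7 CPM and 10.1, 4.198, 7.31 and 6.10 CPM, with a log2 fold change of -1.20 (SE 0.21, adjusted p = 2.71e-05). For KIF5A the values were 8.14, 8.14, 9.005 and 9.57 CPM and 3.94, 4.50, 4.68 and 1.17 CPM, and the log2 fold change was -1.32 (SE 0.29, adjusted p = 0.000362). In both genes every dTAGV1 library lay below every DMSO library.

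Kinesin-2 motors drive transport into cilia and other routes, KIF3A and KIF3B forming a pair with the adaptor KIFAP3. The members of this pair moved in opposite directions. KIF3A had 100.4, 98.2, 114 and 102 CPM with DMSO and 63.0, 56.1, 67.3 and 69.7 CPM with dTAGV1, without overlap, and means of 104 ± 7.196 and 64.0 ± 5.98 CPM (SD, n = 4 each). KIF3A thus fell, with a log2 fold change of -0.69 (SE 0.09, adjusted p = 4.85e-07). KIF3B stood at 127, 148, 138 and 149 CPM and 148, 159, 177 and 179 CPM, which overlapped, with a log2 fold change of 0.24 (SE 0.08, adjusted p = 0.0143). That call is fragile: it was lost on library size alone, without DMSO replicate 1, without dTAGV1 replicate 3 and without dTAGV1 replicate 4, with adjusted p-values of 0.0881, 0.0635, 0.0728 and 0.0695, and without both DMSO replicates 2 and 3 (adjusted p = 0.0595). KIF3C, a partner of KIF3A known from neurons, was at 10.04, 8.62, 8.48 and 8.84 CPM and 6.75, 4.198, 3.22 and 5.87 CPM, a log2 fold change of -0.82 (SE 0.24, adjusted p = 0.00493). KIFAP3 itself rose by 0.40 (SE 0.15, adjusted p = 0.0297). KIF17, the single-chain member, had 0 to 5 counts and was not tested.

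The kinesin-3 family moves endosomes and other membranes. KIF16B, which carries early endosomes (ENSG00000089177; chromosome 20, 16272104 to 16573434, minus strand), had the largest rise of the kinesin genes called, from 40.1, 46.4, 46.1 and 43.9 CPM with DMSO to 83.0, 89.1, 90.9 and 76.8 CPM with dTAGV1. All dTAGV1 libraries were above all DMSO libraries, with means of 44.2 ± 2.89 and 84.9 ± 6.42 CPM (SD, n = 4 each) and a log2 fold change of 0.94 (SE 0.10, adjusted p = 7.15e-09). KIF13A, a motor of recycling endosomes, also rose, with 53.4, 65.6, 62.0 and 69.2 CPM and 90.3, 85.5, 91.2 and 96.0 CPM. The log2 fold change of KIF13A was 0.54 (SE 0.09, adjusted p = 2.26e-05). KIF1C, which carries dense-core vesicles and RNA, went the other way, from 212, 220.0, 244 and 237 CPM to 157, 158, 173 and 159 CPM. Both groups of KIF1C were tight and apart, at a log2 fold change of -0.50 (SE 0.07, adjusted p = 2.66e-06). KIF1B, a carrier of mitochondria and vesicle precursors, was at 123, 111, 136 and 123 CPM and 143, 127, 118 and 109.6 CPM, with a log2 fold change of 0.01 (SE 0.09, adjusted p = 0.901). KIF13B gave 22.0, 20.6, 31.0 and 22.1 CPM and 28.98, 18.6, 29.8 and 23.7 CPM and likewise was not called, at 0.08 (SE 0.16). KIF1A, the neuronal member, had 0 to 4 counts in a library.

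Of the kinesin-4 members in this class, KIF21A, which restrains microtubule growth at the cell cortex, rose from 143, 165, 152 and 152 CPM to 234, 211, 251 and 248 CPM. Its groups did not overlap, and the log2 fold change was 0.62 (SE 0.08, adjusted p = 1.61e-07). KIF21B was not tested, at 2 to 16 counts in a library. The minus-end motors of the class also split. KIFC2 (ENSG00000167702; chromosome 8, 144466043 to 144474202, plus strand) had 23.9, 28.2, 19.9 and 26.0 CPM with DMSO and 7.32, 8.40, 6.43 and 3.52 CPM with dTAGV1. Its log2 fold change of -1.96 (SE 0.20, adjusted p = 1.06e-08), a fall of 3.89-fold, was the most negative of the 30 tested kinesins. KIFC3, which acts at cell junctions, had 39.3, 36.9, 36.8 and 43.9 CPM and 43.3, 55.8, 48.3 and 64.1 CPM, with overlap. It rose by 0.43 (SE 0.12, adjusted p = 0.00288), and without both DMSO replicates 2 and 3 it was not called (adjusted p = 0.0745).

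**Figure D5:**
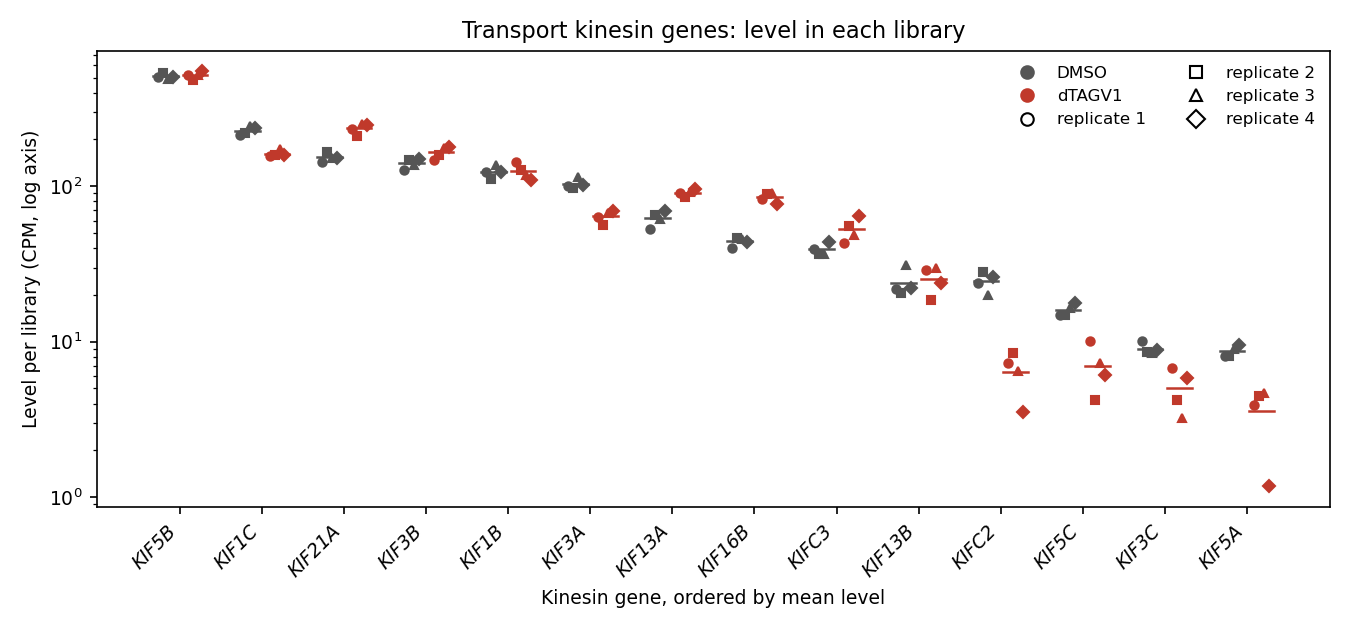
Level of each of the 14 tested transport kinesin genes in CPM on a log axis, ordered by mean level, with points for libraries (grey DMSO, red dTAGV1, a symbol for each replicate number) and short lines for group means. Red points lie below grey ones in the low genes KIFC2, KIF5C, KIF3C and KIF5A and above them in KIF21A, KIF13A and KIF16B.

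KIF5A, KIF5C, KIF3C and KIFC2, the 4 tested transport kinesins best known from neurons, all fell, a grouping made after their values were seen. They were also the 4 tested transport kinesins with the lowest mean level, 6.14 to 15.5 CPM, and KIF13B came next at 24.6 CPM. A grouping by neuronal use and a grouping by low level cannot be told apart here. The 7 neuronal markers summed to 145 to 157 CPM with DMSO and 33.3 to 44.6 CPM with dTAGV1. Each of the 7 had at least 10 counts in all, and of the 3 tested MAP2, SYT1 and TUBB3 all fell. RBFOX3, a defining marker of neurons, had a mean of 2.44 CPM with DMSO and 0.199 CPM with dTAGV1. SYP, a synaptic vesicle protein that was not tested, went against the others, from 1.41 to 3.27 CPM, and SYT1 alone had 114 and 26.3 CPM of the summed level. The part of these genes in the fall of the 4 kinesins was not tested.

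In the remaining class KIF26A, which lacks motor activity and acts in signalling (ENSG00000066735; chromosome 14, 104138723 to 104180894, plus strand), had 18.2, 14.6, 16.4 and 14.0 CPM with DMSO and 4.50, 4.50, 7.31 and 5.40 CPM with dTAGV1. It fell without overlap, at a log2 fold change of -1.53 (SE 0.21, adjusted p = 6.66e-07). KIF9, a protein of motile cilia, had 30.7, 26.6, 30.2 and 35.1 CPM and 13.8, 18.6, 15.8 and 20.7 CPM and fell as well, at -0.82 (SE 0.15, adjusted p = 3.35e-05). KIF27, related to the Hedgehog regulator KIF7, was the 1 gene of the class that rose, from 17.4, 16.3, 15.6 and 12.5 CPM to 21.7, 20.7, 27.2 and 27.0 CPM, with a log2 fold change of 0.65 (SE 0.15, adjusted p = 0.000783). KIF24, which restrains cilium growth at the centriole, was low, with a mean of 3.27 CPM and overlapping groups, and fell by 1.24 on the log2 scale (SE 0.37, adjusted p = 0.00553).

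The other 6 genes of the class were not tested. KIF7 had 0 counts in each DMSO library and 6, 1, 2 and 3 in dTAGV1 replicates 1 to 4, and when low counts were kept edgeR called it higher (adjusted p = 0.00331). KIF12 totalled 33 counts with DMSO and 6 with dTAGV1, and under that setting it was called lower (adjusted p = 0.00185). KIF19 had 13 counts in all, KIF25 had 3, and KIF6 and KIF26B had 0 in all 8 libraries.

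Light chains and adaptors link transport kinesins to cargo. Of 18 such genes 16 were tested, and 4 fell, 6 rose and 6 were not called, with a median log2 fold change of -0.02. The share called, 62.5%, was close to the 57.9% over all tested genes. MAPK8IP3, an adaptor of kinesin-1 in axonal transport, rose by 1.41 (SE 0.15, adjusted p = 1.72e-08), and TRAK1, which joins kinesin-1 to mitochondria, by 1.01 (SE 0.11, adjusted p = 2.01e-08). KLC3, a light chain, fell by 1.05 (SE 0.16, adjusted p = 5.30e-06), and FEZ2 by 0.56 (SE 0.10, adjusted p = 3.72e-05). The list for dynein and dynactin, the motor that walks the other way, also holds adaptors and regulators such as HOOK3 and NDEL1. Of its 24 genes 20 were tested, with 6 lower, 5 higher and a median of 0.05. That share of 55.0% was also close to the 57.9% over all tested genes. On library size alone 2 of these genes were called higher, and without dTAGV1 replicate 3 also 2. HOOK3 fell by 1.21 (SE 0.09, adjusted p = 2.86e-11) and the light intermediate chain DYNC1LI2 by 1.11 (SE 0.07, adjusted p = 5.29e-12). NDEL1 stood at 0.35 (SE 0.11, adjusted p = 0.00844) and DCTN4 at 0.57 (SE 0.08, adjusted p = 1.80e-06).

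Gene length, a property of the annotation, went with the change among kinesins. The 6 genes that rose had a median length of 127.5 kb in GENCODE 29, the 21 that fell 55.4 kb and the 3 not called 171 kb, beside 35.1 kb for tested protein-coding genes. Across the 30 tested kinesins, Spearman's rho between length and log2 fold change was 0.617, with 0.692 in the 14 transport and 0.552 in the 12 mitotic genes. Over 10645 tested protein-coding genes it was 0.146. These are descriptions across genes that share 8 libraries, and genes are not independent replicates. The cleavage factor that NUDT21 belongs to is known to bind the letters UGUA in RNA. In the last 100 bases of annotated transcripts a match to TGTA on the strand of the gene lay in 20 of 27 tested kinesins with a 3′ untranslated region that long, in 14 of 18 that fell and 4 of 6 that rose, beside 56.6% of 10160 tested genes. The ends in use in these cells were not measured per gene.

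Reads on the opposite strand were counted apart, and 4 of the 42 kinesin genes had enough of them to be tested. Over all genes tested on that strand 48.4% were called, and 3 of these 4 were. Where exons of another gene overlap on that strand, such reads can be the same ones counted for that gene. Values of both are therefore not independent. Opposite-strand counts at KIF20A, whose exons overlap CDC23 and BRD8 on the other strand, were 115, 121, 116 and 122 with DMSO and 55, 62, 46 and 77 with dTAGV1. They fell by 1.01 on the log2 scale (SE 0.15, adjusted p = 8.26e-07), and unlike the sense counts they were even across the DMSO libraries. CDC23 and BRD8 themselves were at -0.73 and -0.38. At KIF2A opposite-strand counts went from 128, 160, 112 and 119 to 66, 78, 68 and 105, a fall of 0.74 (SE 0.14, adjusted p = 6.40e-05). KIF24 had 87.2% of its reads on the opposite strand, where UBAP1 overlaps it, and these rose by 0.49 (SE 0.16, adjusted p = 0.00966), beside 0.49 for UBAP1 itself. Without DMSO replicate 2 the count at KIF24 was not called. At KIF7, which overlaps TICRR, the opposite-strand change was -0.54 (SE 0.30, adjusted p = 0.136). TICRR itself was at -1.24 (SE 0.20, adjusted p = 7.44e-06).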

How the data were processed

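Per the labels' protocols, 3′ ends of polyadenylated RNA were sequenced from 8 libraries, 4 in each group. The deposited values are raw read counts per gene with columns for either strand, and the submitters' processing notes name FastQC, fastp, STAR, HTSeq, DESeq2 and GRCh38 without roles or versions. Counts on the strand of the gene were used. Summary lines for unassigned reads, 56.7% to 62.8% of reads, were left out. edgeR 4.0.16 in R 4.3.3 filtered low counts with its default rule, scaled by TMM and fitted the quasi-likelihood model to all genes. The fit was first run on simulated data in which few genes were changed. In the real data 57.9% of tested genes were called, so that run does not cover scaling or error rates under such wide change. DESeq2 1.42.0, other scalings and filters, left-out libraries and a replicate block were alternatives. Gene names and positions came from GENCODE 29, promoters from RefSeq. Every kinesin gene is named; values in every library are given from a mean of 5 CPM on, and for each pathway list the 2 lowest and 2 highest genes, beside CENPE and KIFAP3, which were chosen after their values were seen. The kinesin genes, their classes and the lists were chosen with earlier results of these data known.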

Additional observations from a re-analysis of the deposited data

Results flagged for a closer look

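In 3 of 64 groups of 4 library values looked at, 1 library stood far from the other 3, and chance alone gives about 1 in 20 such groups. KIF13B was at 31.0 CPM in DMSO replicate 3, where the other DMSO libraries had 20.6 to 22.1 CPM. KIF1C was at 173 CPM in dTAGV1 replicate 3, beside 157 to 159 CPM in the other dTAGV1 libraries. The summed transport kinesins were at 1429 CPM in DMSO replicate 1, beside 1507 to 1514 CPM in the other DMSO libraries.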

How the results depend on the processing

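Of 958 values under alternatives, 919 were scored as the same, 8 lost a call and 31 moved. Of 468 values of single kinesin genes 460 were scored as the same. A list count or median was scored so when it stayed close, and an uncalled gene when it stayed uncalled, whatever its sign. The medians of the mitotic and transport classes with members left out were scored so without a comparison. No called kinesin gene changed sign under the alternatives run, but KIF13B, KIF1B and KIF5B, which were not called, and the medians of transport kinesins, light chains and adaptors, and dynein and dynactin, all near 0, did under some. With a mean of at least 100 counts, which leaves fewer genes, 13 kinesins were called lower among 20 tested, 2 of 9 transport kinesins lower and 2 of 11 light chains and adaptors higher. No gene of the cilium, signalling and other class was tested there. In that class 2 genes were called higher with DESeq2 and 2 with no filter, which tests more genes. Transport kinesins called higher numbered 3 without both DMSO replicates 2 and 3, and 3 among kinesin-1, kinesin-2 and kinesin-3 members only. Dynein and dynactin genes called higher numbered 3 with DESeq2, 2 on library size alone, 3 with no filter, 3 on counts irrespective of strand and 3 without both DMSO replicates 2 and 3, and 2 to 5 with 1 library left out (3 without DMSO replicate 4, dTAGV1 replicate 1 or dTAGV1 replicate 2, and 2 without dTAGV1 replicate 3). The cause was not tested. Summed transport kinesins, which carry no test, differed by -22.5 CPM on library size alone, a change of sign from 56.4 CPM, and by 24.5 to 70.9 CPM with 1 library left out. Opposite-strand genes called higher numbered 0 without DMSO replicate 2, and 0 to 1 over all such fits.

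With the replicate number as a block, 12 mitotic kinesins were called lower, and transport kinesins 6 lower and 5 higher, as without it. Deviations of same-numbered libraries correlated at 0.135, -0.0222, 0.0253 and 0.0362, so the numbers were not taken to pair the libraries. The 12 untested genes had no more than 16 counts in any library, and with the filter used no test was made for them. KIF12, KIF7 and KIFC1 were called by edgeR when low counts were kept. They were also called by DESeq2 (adjusted p = 0.0229, 0.0181 and 0.0288). Low depth and lack of RNA cannot be told apart in the untested genes.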
